A study of Mus musculus with 6 samples.

Results

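Kainate receptors are glutamate-gated cation channels. Their 5 subunit genes, Grik1 to Grik5, and the genes of their auxiliary proteins, Neto1 and Neto2, were followed in the hippocampus of mice lacking miR-301a and of wild-type mice. These 7 genes were chosen by name. Each had 1 row among the 54393 genes of the deposited table, and all 7 passed the filter on low values.

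The knockout group held 3 libraries from hippocampus of untreated miR-301a-/- mice, coded 1-1, 2-2 and 3-1 in their titles. The wild-type group held 3 libraries coded 1-1, 2-1 and 2-2. All mice are labelled C57BL/6 and are given as 6 to 8 weeks old. How the miR-301a allele was made, the sex of the mice, whether tissue was pooled and what the codes stand for are not given in the sources used here. Nothing in the labels ties a library to a separate animal, so the p-values measure the spread between libraries, which may be technical. The comparison asks how the transcripts of this receptor family stand in hippocampus without this microRNA.

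A kainate receptor is a tetramer. The subunits GluK1, GluK2 and GluK3, encoded by Grik1, Grik2 and Grik3, can form channels by themselves. GluK4 and GluK5, encoded by Grik4 and Grik5, bind agonist with high affinity and function only together with the first group. Neto1 and Neto2 are CUB-domain membrane proteins that slow the decay of kainate receptor currents, and Neto1 is also found with NMDA receptors. In the hippocampus these receptors are best known at the mossy fibre synapse, where axons of dentate granule cells contact CA3 pyramidal neurons, and in interneurons.

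The microRNA and its possible pairing sites in the family are shown first, because loss of the microRNA is the variable of the study. The mature sequences come from RefSeq on GRCm38.p6, are written 5′ to 3′, and carry the seed (bases 2 to 8) in capitals. The family members miR-130a and miR-130b, encoded elsewhere in the genome, have the same seed as miR-301a.
mmu-miR-301a-3p: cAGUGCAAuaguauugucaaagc
mmu-miR-130a-3p: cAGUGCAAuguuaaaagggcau
mmu-miR-130b-3p: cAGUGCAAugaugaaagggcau

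None of the 7 genes had the heptamer TTGCACT, which pairs with bases 2 to 8, in the longest 3′ UTR of its protein-coding transcripts in GENCODE M21 (sense strand of the transcript only). The heptamer was present in 12.2% of 12744 tested genes with such a 3′ UTR, and in 23.8% of those with 2000 nt or more. The hexamer TGCACT, contained in the heptamer and pairing with bases 2 to 7, was present in 5 of the 7 genes, against 35.3% of tested genes. Those 5 were Grik2, Grik3, Grik4, Neto1 and Neto2, which were also the 5 with a 3′ UTR of 2000 nt or more, a length class in which 63.0% of genes had the hexamer. Grik1 and Grik5, with annotated 3′ UTRs of 304 and 520 nt, had none. A letter match is not evidence of binding.

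The hexamers of Grik2, Grik3 and Grik4 are printed in capitals with the bases on either side, on the strand of the transcript (GRCm38). Grik2 is shown because its hexamer alone among those of the family was followed by an A, the base that lies opposite base 1 of the microRNA, and Grik3 and Grik4 because their values varied most. The heptamer-length match TGCACTA was found in 7.67% of tested genes and in 15.3% of those with long 3′ UTRs.
Grik2, chr10:49099769-49099796, minus strand: taaaagctaggTGCACTaccaccacggc
Grik3, chr4:125709801-125709828, plus strand: ggctggctggcTGCACTgggggagggag
Grik3, chr4:125710239-125710266, plus strand: gtgtgtgtgtgTGCACTgaatggcagag
Grik4, chr9:42520191-42520218, minus strand: ggagttgcaggTGCACTgggtttcaggt

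All values below are FPKM-like, that is, scaled by the authors for gene length and sequencing depth, and levels of different genes are therefore compared per length. The median-of-ratios factor was the same, 1.00241, in all 6 columns. The depth scaling thus already equalised median ratios rather than total reads, and the depth estimated below is on that scale. The table itself names no unit. The number of reads behind each value was estimated from the smallest values of genes with 2000 to 8000 nt of exons. By that estimate, library depth, in units of 1e+06 reads, was 16.7 to 26.7 in the knockout and 19.6 to 27.8 in wild type. The least covered member, Grik1, stood for 599 to 846 reads per library and the most covered, Grik5, for 6092 to 10794. Counting error would then be about 4.09% at the fewest reads of Grik1. Because these read numbers are estimates, no counting intervals are given. The targeted gene, Mir301, is listed at 0 in knockout and wild type alike (6 of 6 libraries), and these poly(A) values therefore do not check the knockout label. Knockout 1-1 and, in other lists, knockout 2-2 stood apart from the rest in the marker lists described further on. Differences for Grik1, Grik3, Grik4, Neto1 and the subunit and Neto balance are given with and without each of them. Other results are given so only in part.

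No member was called different between the genotypes. Each gene was tested as log2(value + 1) with limma, adjusted by Benjamini-Hochberg over 14708 genes, and called at an adjusted p under 0.05. Of the 7 members 0 were called, and 0 had an unadjusted p under 0.05, while 0.109% of all tested genes were called and 5.72% had an unadjusted p under 0.05. The groups overlapped in all 7 members, and 11.4% of all tested genes had groups that did not overlap. At shares this low, 0 of 7 does not set the family apart from other genes. The members' adjusted p ran from 0.918 to 0.995. The median log2 fold change (knockout minus wild type) was 0.02 over the 7 members and −0.0038 over all tested genes, and the median absolute log2 fold change was 0.06 over the members and 0.09 over all tested genes.

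**Figure D1:**
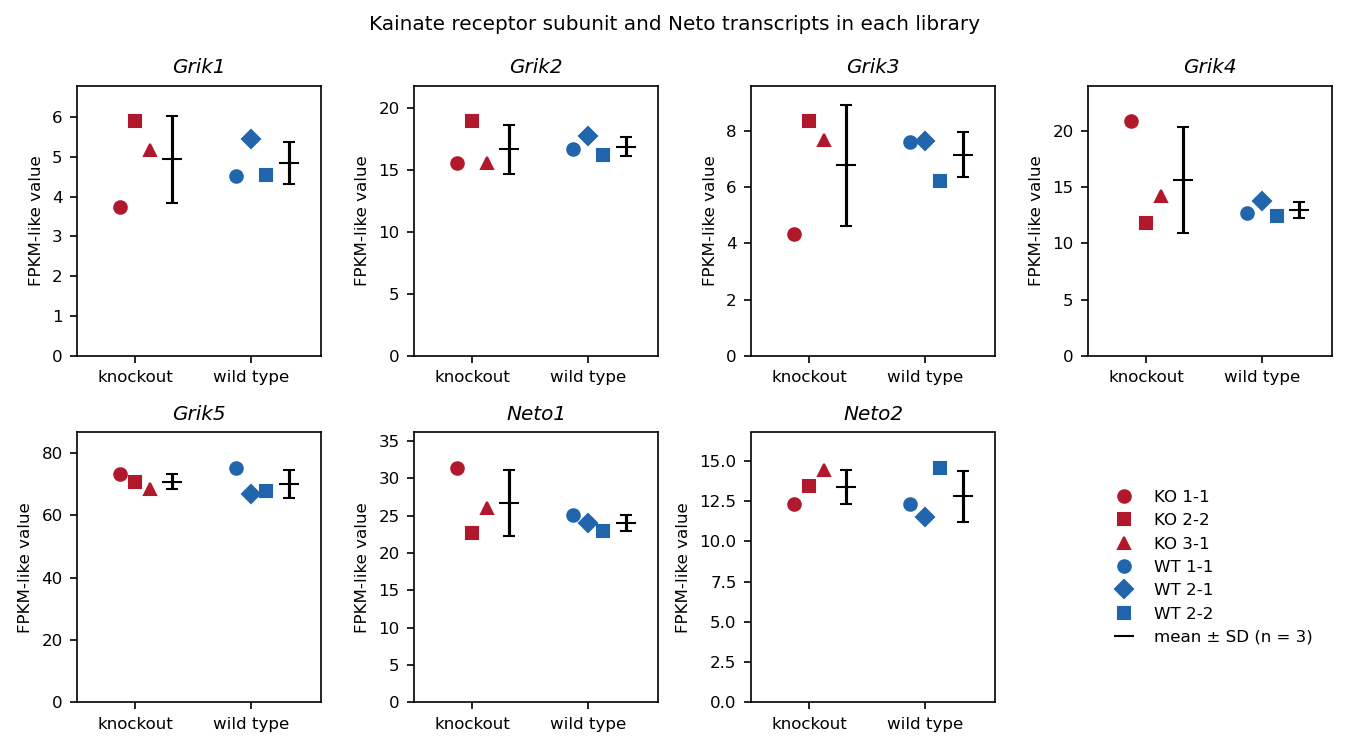
FPKM-like values (linear axes from 0) of the 7 genes in 3 knockout libraries (red) and 3 wild-type libraries (blue), with mean and SD in black and 1 symbol per library code. The groups overlap in every panel, and the circle of knockout 1-1 is the highest point for Grik4 (20.9) and Neto1 (31.4) and the lowest for Grik3 (4.32) and Grik1 (3.75).

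By mean level over the 6 libraries the order was Grik5, Neto1, Grik2, Grik4, Neto2, Grik3 and Grik1. Grik5, the most abundant member, averaged 70.3 and lay above 91.3% of tested genes. Its level was 2.77 times that of Neto1 (mean 25.3), with no overlap of their ranges. Neto1 in turn stayed above Grik2 (mean 16.8) in 6 of 6 libraries without overlap of ranges. Grik2 was above Neto2 (mean 13.1) without overlap of ranges, but Grik4 (mean 14.3) had no firm place beside them. Its range overlapped that of Grik2 and that of Neto2, with which it changed places in 3 of 6 libraries. Neto2 was 1.88 times as high as Grik3 (mean 6.97) with no overlap. Grik3 was above Grik1 (mean 4.89) in 6 of 6 libraries, although their ranges over all libraries overlapped. The lengths the authors used are not given, so these between-gene ratios carry that uncertainty.

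Among the subunits that can form channels alone, Grik1 (ENSMUSG00000022935.16, GRCm38 chromosome 16, 87895900 to 88290265) was the least abundant. Its values were 3.75, 5.90 and 5.18 in knockout 1-1, 2-2 and 3-1, against 4.53, 5.45 and 4.55 in wild type 1-1, 2-1 and 2-2. The knockout libraries held both the lowest and the highest value, and the wild-type range lay inside them. The log2 fold change was 0.01 (SE 0.16, 95% interval −0.36 to 0.38, limma adjusted p = 0.995), and without knockout 1-1 it was 0.16 (adjusted p = 0.862). Without knockout 2-2, its highest library, it was −0.11.

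Grik2 encodes GluK2, the main subunit of mossy fibre kainate receptors (ENSMUSG00000056073.16, chromosome 10, 49094833 to 49788766). Its values were 15.5, 18.9 and 15.5 in knockout 1-1, 2-2 and 3-1, against 16.7, 17.7 and 16.2 in wild type 1-1, 2-1 and 2-2. The means nearly coincided, at 16.7 ± 1.96 in knockout and 16.8 ± 0.774 in wild type (SD, n = 3 each). The log2 fold change was −0.02 (SE 0.09, 95% interval −0.24 to 0.20, limma adjusted p = 0.983). These libraries thus leave room for a difference of that size in either direction. The single hexamer followed by A, printed above, lies in this transcript, and an effect of that site was not tested.

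Grik3 encodes GluK3, a subunit of low agonist sensitivity (ENSMUSG00000001985.9, chromosome 4, 125490700 to 125714173). Its values were 4.32, 8.34 and 7.68 in knockout 1-1, 2-2 and 3-1, against 7.59, 7.65 and 6.23 in wild type 1-1, 2-1 and 2-2. Knockout 1-1 was the lowest of all libraries, while the other knockout libraries were the highest. The log2 fold change was −0.11 (SE 0.22, 95% interval −0.62 to 0.41, limma adjusted p = 0.966), and without knockout 1-1 it was 0.15 (SE 0.12, adjusted p = 0.876). Without knockout 2-2 it was −0.26. Grik3 had the widest range of the family, 0.81 on the log2 scale, a range exceeded by 11.6% of tested genes.

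Of the high-affinity subunits, Grik4, whose transcript is known to be concentrated in CA3 pyramidal neurons, had the highest coefficient of variation of the family, 23.3% over the 6 libraries (ENSMUSG00000032017.14, chromosome 9, 42518135 to 42944493). Its values were 20.9, 11.8 and 14.2 in knockout 1-1, 2-2 and 3-1, against 12.7, 13.8 and 12.4 in wild type 1-1, 2-1 and 2-2. Knockout 1-1 stood above all other libraries, and knockout 2-2 was the lowest. The mean was 15.6 ± 4.70 in knockout and 13.0 ± 0.720 in wild type (SD, n = 3 each), a log2 fold change of 0.21 (SE 0.19, 95% interval −0.23 to 0.65, limma adjusted p = 0.918). Without knockout 1-1 the log2 fold change was −0.0030 (SE 0.10, 95% interval −0.26 to 0.25, adjusted p = 0.996), and the mean of the 2 remaining knockout libraries was 13.0. Without knockout 2-2, its lowest library, the log2 fold change was 0.38 (adjusted p = 0.864).

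Grik5 encodes GluK5, the most widely expressed high-affinity subunit (ENSMUSG00000003378.9, chromosome 7, 25009849 to 25072346), and was the steadiest member. Its values were 73.0, 70.7 and 68.3 in knockout 1-1, 2-2 and 3-1, against 75.2, 66.7 and 67.8 in wild type 1-1, 2-1 and 2-2. The coefficient of variation over the 6 libraries was 4.68%, the lowest of the family, and 90.4% of tested genes had a wider range. Grik5 had a log2 fold change of 0.02 (SE 0.07, limma adjusted p = 0.983). Its 95% interval on the fold scale of value + 1, from 0.909 to 1.13, was the narrowest in the family.

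Of the auxiliary proteins, Neto1 (ENSMUSG00000050321.3, chromosome 18) was the more abundant. Its values were 31.4, 22.7 and 26.0 in knockout 1-1, 2-2 and 3-1, against 25.1, 24.0 and 22.9 in wild type 1-1, 2-1 and 2-2. Knockout 1-1 was again the highest and knockout 2-2 the lowest library, as for Grik4. The log2 fold change was 0.14 (SE 0.12, 95% interval −0.14 to 0.41, limma adjusted p = 0.918), and 0.02 without knockout 1-1 (SE 0.09, adjusted p = 0.976). Without knockout 2-2 it was 0.25 (limma unadjusted p = 0.0467, adjusted p = 0.864). An antisense gene, AC113599.1, shares 219 exonic nt with Neto1, and whether reads were counted by strand is not stated. Its own value reached at most 0.0793.

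Neto2 (ENSMUSG00000036902.11, chromosome 8, 85636588 to 85700924) had values of 12.3, 13.4 and 14.4 in knockout 1-1, 2-2 and 3-1, against 12.3, 11.5 and 14.6 in wild type 1-1, 2-1 and 2-2. Lowest and highest values were both in wild type. Neto2 had a log2 fold change of 0.06 (SE 0.11, 95% interval −0.19 to 0.31, limma adjusted p = 0.955). A small RNA gene on the opposite strand, Mir8109, shares 20 exonic nt with Neto2 and is listed at 0 in 3 libraries and at up to 8.30 in the others.

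The authors' deposited table gives all 7 genes a p-value of 1 and an adjusted p of 1. Its log2 fold changes for them run from −0.08 for Grik3 to 0.27 for Grik4 in the authors' deposited table.

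**Figure D2:**
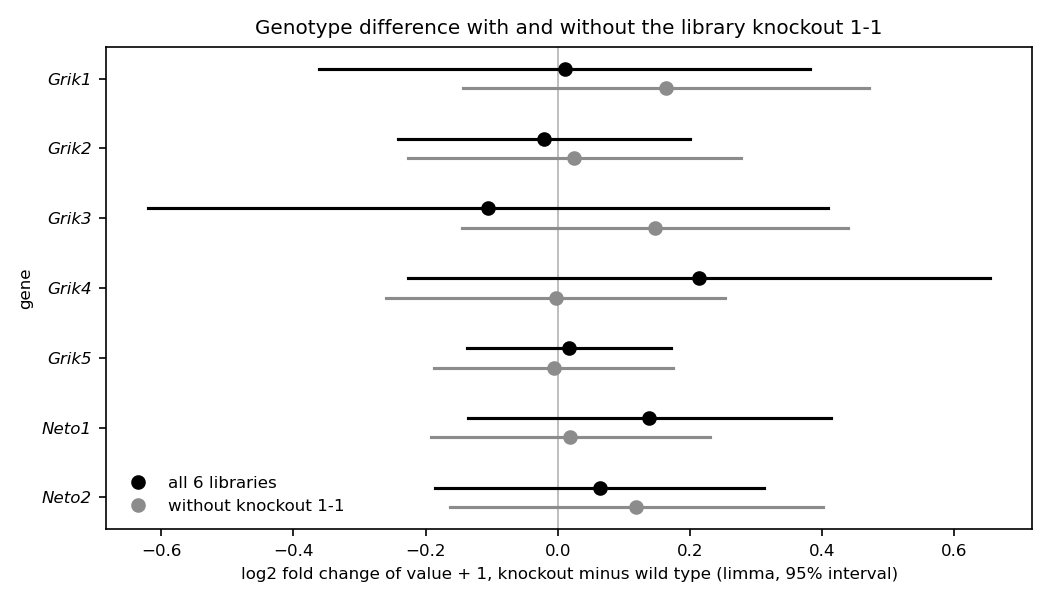
Log2 fold change of value + 1, knockout minus wild type, with limma's 95% interval, for each gene over all 6 libraries (black) and without knockout 1-1 (grey). Every interval contains 0, and leaving out that library moves Grik4 from 0.21 to −0.0030 and Grik3 from −0.11 to 0.15.

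The balance among the subunits was compared as each gene's share of the summed Grik1 to Grik5 values in a library. The sum itself was 114.7 ± 3.39 in knockout and 111.7 ± 4.77 in wild type (SD, n = 3 each). Grik5 supplied 61.6% ± 0.515 of it in knockout and 62.5% ± 2.32 in wild type (SD, n = 3 each). The high-affinity pair Grik4 and Grik5 together made up 79.9%, 71.3% and 74.4% in knockout 1-1, 2-2 and 3-1, against 75.3%, 72.3% and 74.9% in wild type 1-1, 2-1 and 2-2. Knockout held both extremes of this share. The difference of 1.05 percentage points gave p = 0.9 in a two-sided exact permutation test, where 3 against 3 libraries cannot give less than 0.1. Without knockout 1-1 the difference was −1.31 percentage points, and without knockout 2-2 it was 2.99.

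Within that sum Grik4 took 17.8% in knockout 1-1, 10.2% in knockout 2-2 and 12.8% in knockout 3-1, against 10.9%, 12.4% and 11.6% in wild type 1-1, 2-1 and 2-2. Grik3 took 3.68%, 7.21% and 6.92% in the same order of knockout libraries, against 6.51%, 6.87% and 5.81% in wild type. Knockout 1-1 thus had the highest Grik4 share and the lowest Grik3 share of the 6 libraries, with a sum of the 5 subunits (117.5) close to that of wild type 1-1 (116.7).

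**Figure D3:**
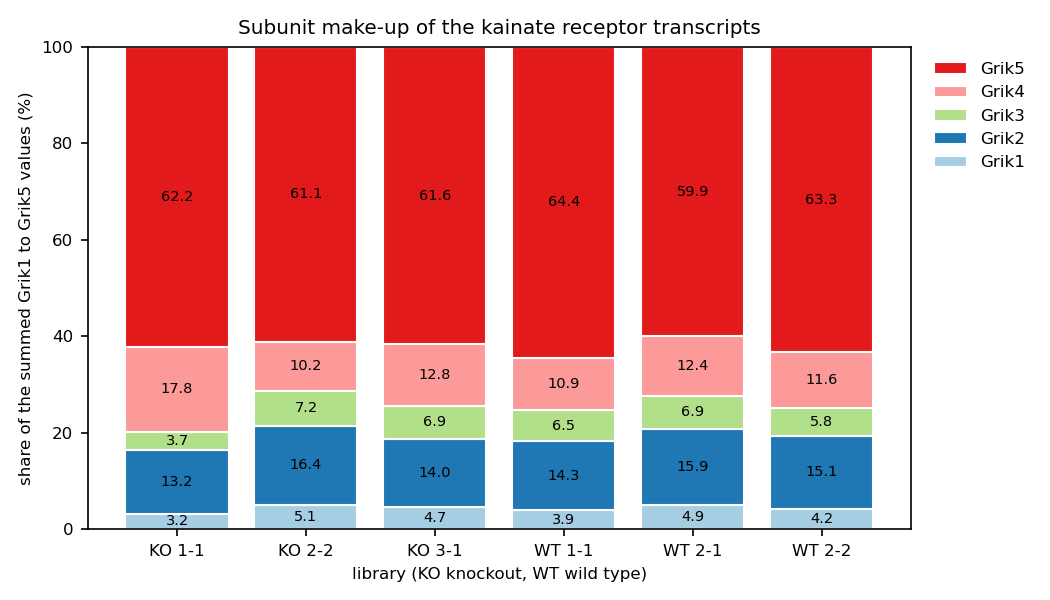
Stacked bars give the percent of the summed Grik1 to Grik5 values (linear axis, 0 to 100) taken by each subunit gene in 3 knockout and 3 wild-type libraries. Grik5 takes 59.9% to 64.4% in every library, and the Grik4 band is widest in knockout 1-1 (17.8%).

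The ratio of Neto1 to Neto2 was 2.56, 1.69 and 1.80 in knockout 1-1, 2-2 and 3-1, against 2.04, 2.08 and 1.57 in wild type 1-1, 2-1 and 2-2. Neto1 exceeded Neto2 in all 6 libraries. On the log2 scale the ratio averaged 0.99 ± 0.32 in knockout and 0.91 ± 0.23 in wild type (SD, n = 3 each), a difference of 0.07 (two-sided exact permutation p = 0.8). The difference was −0.11 without knockout 1-1, 0.19 without knockout 2-2 and −0.06 without wild type 2-2.

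The 4 largest departures of the family from the wild-type mean lay in 1 library, knockout 1-1. Of the 7 genes, Grik4 and Neto1 had their highest value there and Grik1, Grik2 and Grik3 their lowest, whereas 17.6% of tested genes were highest and 18.7% lowest in that library. From the wild-type mean of log2(value + 1), Grik4 was higher by 0.65 and Neto1 by 0.38 in knockout 1-1. Grik3 stood at −0.61 and Grik1 at −0.29 on the same scale. In knockout 2-2 the same 4 genes stood on the other side of that mean, at −0.13 for Grik4, −0.08 for Neto1, 0.20 for Grik3 and 0.24 for Grik1. In knockout 3-1 all 4 were slightly above it, from 0.08 for Grik1 to 0.12 for Grik4.

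In knockout 1-1 the CA3 markers were high and the dentate granule cell markers low. From knockout 1-1 to 2-2 the median log2 deviation of the CA3 markers went from 0.52 to 0.03. For dentate granule cell markers it went from −0.30 to 0.18, for astrocyte markers from 0.21 to −0.10 and for microglia markers from 0.26 to −0.27. Oligodendrocyte (0.06 to −0.55) and endothelial (0.0015 to −0.05) medians also changed side of the wild-type mean. The CA1, CA2, interneuron, choroid plexus, blood and thalamus medians did not. Markers of CA1, CA3, dentate granule cells and interneurons were read, and none was at 0 in all libraries. The same held for the choroid plexus, blood and thalamus markers, so this does not check the tissue label. All 10 CA3 markers had a log2 fold change above 0, with none called, and 7 of the 10 were highest in knockout 1-1. Their median log2 deviation from wild type in that library was 0.52. Their summed values were 271.9, 180.1 and 216.2 in knockout 1-1, 2-2 and 3-1, against 200.1, 156.2 and 197.1 in wild type 1-1, 2-1 and 2-2. Without knockout 1-1, 9 of the 10 had a log2 fold change above 0, and their median was 0.13, against 0.25 with it. Grik4 itself was kept out of that list.

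Of the 7 dentate granule cell markers, 6 were lowest in knockout 1-1, with none called. Summed over the list, they reached 76.2, 109.5 and 109.2 in knockout 1-1, 2-2 and 3-1, against 94.8, 97.1 and 93.2 in wild type 1-1, 2-1 and 2-2. In knockout 1-1 their median log2 deviation from wild type was −0.30. The list's median log2 fold change was 0.03, and 0.20 without that library. The 6 CA1 markers had median log2 deviations of −0.46, −0.51 and −0.12 in knockout 1-1, 2-2 and 3-1. Their summed values were 165.0 to 213.4 in knockout and 184.7 to 256.9 in wild type. All 6 CA1 markers had a log2 fold change below 0, with none called. Without knockout 1-1, 5 of the 6 were below 0, and their median was −0.31, against −0.37 with it. The 3 tested CA2 markers had medians of 0.85, 0.77 and 0.09 in knockout 1-1, 2-2 and 3-1, and the 10 interneuron markers 0.08, 0.07 and 0.08. The summed CA2 values were 57.9 to 108.3 in knockout and 49.7 to 63.3 in wild type, and the summed interneuron values 1383 to 1459 in knockout and 1363 to 1542 in wild type.

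The 5 blood markers, haemoglobin genes and Alas2, had summed values of 214.9 to 441.4 in knockout and 158.9 to 294.6 in wild type, with the maximum in knockout 1-1. That library also had the largest mitochondrial share of summed values, 22.8%, against 16.1% to 21.8% in the wild-type libraries. Of the 6 astrocyte and 6 microglia markers, 5 each were highest there. Summed astrocyte markers stood at 1016 in knockout 1-1, against 859.4 to 961.6 in wild type, and summed microglia markers at 270.6, against 214.6 to 239.4. Summed choroid plexus markers were 8.81 to 19.9 in knockout and 7.02 to 8.61 in wild type, and thalamus markers 13.4 to 13.5 in knockout and 7.42 to 14.3 in wild type. The choroid plexus gap came mainly from Ttr, at 12.2, 10.7 and 2.74 in knockout 1-1, 2-2 and 3-1. In wild type 1-1, 2-1 and 2-2 Ttr was at 1.68, 1.41 and 2.57. Kl and Folr1, the other tested choroid plexus markers, overlapped between the groups. Summed oligodendrocyte markers were 2108 to 3149 in knockout and 2536 to 3819 in wild type, and endothelial markers 111.9 to 138.3 in knockout and 102.7 to 135.6 in wild type. In knockout 2-2 the oligodendrocyte and microglia sums were the lowest of the 6 libraries, at 2108 and 185.9, with median log2 deviations of −0.55 and −0.27. No marker gene of any list was called. The part of cell make-up, blood or RNA composition in the values of Grik4, Neto1, Grik3 and Grik1 was not tested. In these bulk samples fewer cells of a type and less RNA per cell cannot be told apart.

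**Figure D4:**
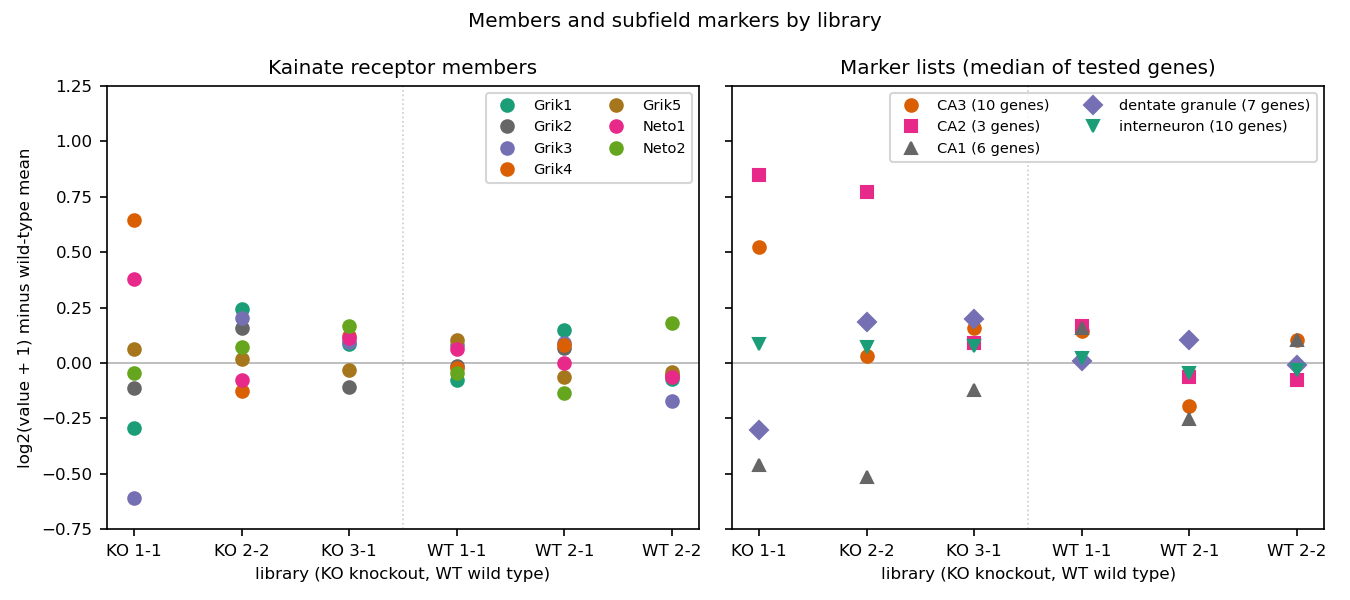
Left, log2(value + 1) of each member minus its wild-type mean in 3 knockout and 3 wild-type libraries; right, the median of the same quantity over the tested genes of 5 marker lists. In knockout 1-1 Grik4 (0.65) and the CA3 list (0.52) are high while Grik3 (−0.61) and the dentate granule list (−0.30) are low. The other lists stand at 0.85 (CA2), −0.46 (CA1) and 0.08 (interneuron) in that library. In knockout 2-2 the CA2 list is at 0.77 and Grik4 at −0.13.

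Genes whose products organise, anchor, move or modify kainate receptors were read from lists of 25 genes, of which 1 was not analysed here. Of the 24 tested, 0 were called (limma, lowest adjusted p 0.832), 3 had an unadjusted p under 0.05 (5.72% of all tested genes had one), and 5 had groups that did not overlap (11.4% of all tested genes). The log2 fold change was above 0 for 17 and below 0 for 7, with a median of 0.03 and a range of −0.27 to 0.36, against a median of −0.0038 over all tested genes.

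The synaptic organisers C1ql2 and C1ql3 are secreted by mossy fibre terminals and recruit kainate receptors to the mossy fibre synapse. C1ql2 had values of 32.5, 51.9 and 55.2 in knockout 1-1, 2-2 and 3-1, against 59.8, 57.8 and 44.9 in wild type 1-1, 2-1 and 2-2. C1ql3 had values of 32.9, 63.3 and 64.1 in knockout 1-1, 2-2 and 3-1, against 58.3, 72.6 and 55.6 in wild type 1-1, 2-1 and 2-2. Both were lowest in knockout 1-1, as Grik3 and Grik1 were, and their log2 fold changes of −0.24 and −0.27 (limma adjusted p = 0.918 and 0.921) became −0.0058 and 0.04 without it.

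Nrxn3, a neurexin and thus a presynaptic partner of the C1ql proteins, was one of the 5 without overlap. Its values were 42.9, 38.7 and 41.2 in knockout 1-1, 2-2 and 3-1, against 37.2, 34.1 and 35.1 in wild type 1-1, 2-1 and 2-2. Every knockout library was above every wild-type library, yet the log2 fold change of 0.20 (SE 0.06) missed the threshold over all genes (limma adjusted p = 0.832). Without knockout 1-1 it was 0.17. Ctnnb1, encoding beta-catenin of the cadherin complex, averaged 198.4 ± 21.3 in knockout and 194.0 ± 3.39 in wild type (SD, n = 3 each), with a log2 fold change of 0.03, and of 0.11 without knockout 1-1, its lowest library.

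Adarb1 encodes ADAR2, which edits the pore codon of Grik1 and Grik2 transcripts. It had values of 38.4, 34.6 and 35.7 in knockout 1-1, 2-2 and 3-1, against 31.7, 32.2 and 31.4 in wild type 1-1, 2-1 and 2-2. The groups did not overlap, and the log2 fold change of 0.18 (SE 0.06) was not called (limma adjusted p = 0.832). Without knockout 1-1, the highest library for Adarb1, the log2 fold change was 0.14. Adar averaged 39.0 ± 3.05 in knockout and 37.5 ± 2.19 in wild type, and Adarb2, a relative without known editing activity, 7.53 ± 0.922 in knockout and 6.88 ± 0.948 in wild type (SD, n = 3 each). Editing itself cannot be read from gene-level values.

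Cul3, a ubiquitin ligase scaffold, and Klhl24, a BTB-kelch protein that binds GluK2, from the group for trafficking and modification, were also without overlap and were singled out after their values were seen. Cul3 had a log2 fold change of 0.16 (limma adjusted p = 0.874) and Klhl24 of 0.12 (limma adjusted p = 0.893). Of the abundant genes of that group, Snap25 had a log2 fold change of 0.02, Nsf of 0.03 and Pfn2 of 0.04. Snap25 and Pfn2 were highest in knockout 1-1, and without it their log2 fold changes were −0.07 and −0.0073. Prkca, encoding a kinase that phosphorylates GluK2, had the largest log2 fold change of the 24, 0.36, and was singled out after its values were seen. Its values were 62.3, 37.9 and 43.0 in knockout 1-1, 2-2 and 3-1, against 40.3, 30.9 and 37.7 in wild type 1-1, 2-1 and 2-2, so that it too was highest in knockout 1-1, and its log2 fold change without that library was 0.16. Among the scaffolds, Dlg4, encoding PSD-95, averaged 280.1 ± 11.2 in knockout and 283.9 ± 22.8 in wild type (SD, n = 3 each), and Dlg1, encoding SAP97, 26.1 ± 1.40 in knockout and 29.7 ± 3.71 in wild type. Dlg3 and Pick1 had log2 fold changes of 0.04 and −0.08.

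Subunit genes of the other ionotropic glutamate receptors were read in the same fit. Of the 4 AMPA receptor genes 0 were called, with a median log2 fold change of 0.02 and a range of −0.01 to 0.08. Of the 6 tested NMDA receptor genes 0 were called, with a median of 0.0090 and a range of −0.01 to 0.11. Per length, Gria2, which sets calcium permeability of AMPA receptors, averaged 169.5 ± 7.23 in knockout and 160.0 ± 2.93 in wild type (SD, n = 3 each). Grin1, the obligatory NMDA receptor subunit, averaged 156.2 ± 6.49 in knockout and 156.4 ± 10.1 in wild type (SD, n = 3 each), above Grik5, the most abundant kainate receptor gene.

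The pattern of Grik3 over the 6 libraries, the widest of the family, was set against every other tested gene by the mean absolute difference of log2(value + 1), each gene centred on its own mean. The 5 most alike were Tiam1 (0.04), Lrrtm4 (0.05), Kcnf1 (0.05), Syt17 (0.06) and Gpc4 (0.06), each with its lowest value in knockout 1-1. Because they were selected for likeness to Grik3, which was lowest in that library, their low value there is no separate observation. Tiam1 had values of 18.2, 32.5 and 29.1 in knockout 1-1, 2-2 and 3-1, against 27.7, 27.7 and 23.5 in wild type 1-1, 2-1 and 2-2. Within the family Grik1 was closest to Grik3 (0.10, rank 71), and Grik4 (0.37, rank 13337) and Neto1 (0.29, rank 10944) were the farthest. These distances describe 6 libraries and carry no test.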

How the data were processed

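Hippocampal poly(A) RNA of 3 miR-301a-/- and 3 wild-type libraries was sequenced. The submitters' processing notes name HISAT2 2.1.0, HTSeq and mm10 without roles, and the series' design text names other aligners, so the steps behind the table are unknown here. The deposited values behave as FPKM, scaled by the authors to gene length and depth, with equal median ratios across libraries. The table names no unit. The authors' deposited table adds per gene a p-value, raw and adjusted, and a log2 fold change, read only for comparison.

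The test, limma 3.58.1 on log2(value + 1), took genes that reached 1 in 3 or more of the 6 libraries (R 4.3.3, trend on mean level, Benjamini-Hochberg); it was tested on simulated data. Fold changes on this scale understate those of low genes. Shares and ratios were compared by exact permutation with scipy 1.17.1. Up to 4 genes of each other receptor list were named, by mean level; some results are not reported here. The 5 genes most like the member with the widest range were named too. Members and lists were chosen with earlier results of these data known. Alternatives covered filter, pseudocount, scaling, trend, replicate block and each library left out.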

Additional observations from a re-analysis of the deposited data

How the results depend on the processing

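None of the 7 genes was called under any of 13 alternative settings, and over these settings the lowest adjusted p was 0.862 (limma). Among them, median-of-ratios scaling could change almost nothing, because the columns already had equal factors. Over all genes 16 were called; 4 were called with no filter on low values, 4 with a value of 1 or more required in all libraries, and 4 to 17 with each library left out in turn. A replicate block on the 2 codes shared by the groups gave 0 calls (limma, 611 genes at an unadjusted p under 0.05). Knockout 3-1 and wild type 2-1 share no code and add nothing to the genotype difference there. Little is then left to estimate the spread, so these 0 calls cannot decide whether the other calls hold under pairing. Same-code libraries deviated with correlations of −0.10 and −0.06, and the labels do not say what a code marks, so no pairing was assumed. Under that block Grik2 had a log2 fold change of 0.0579 and Neto2 of −0.0564, both taken from codes 1-1 and 2-2 alone. With values scaled to a common sum outside the mitochondrial genome, Grik2 had 0.0047. That scaling moved the median log2 fold change over all tested genes from −0.0038 to 0.02. With each library left out in turn, log2 fold changes ran from −0.11 to 0.16 for Grik1, −0.11 to 0.0252 for Grik2, −0.26 to 0.15 for Grik3, −0.0030 to 0.38 for Grik4, −0.0148 to 0.0699 for Grik5, 0.02 to 0.25 for Neto1 and −0.0044 to 0.15 for Neto2. The Grik4 and Grik5 share difference ran from −1.31 to 2.99 percentage points and the log2 Neto1 to Neto2 difference from −0.11 to 0.19. With 3 libraries a group, the intervals of the 7 genes leave room for differences of the sizes they span, and depth was estimated, not given.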
